A study of Mus musculus with 7 samples.

Results

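Myc and the genes of ribosome biogenesis were followed in OT-I cells, which are CD8 T cells carrying a transgenic receptor for an ovalbumin peptide, after transfer into host mice of 4 kinds. The set was a list of 45 named genes: 7 of the Myc network, 37 of ribosome assembly and Odc1, a textbook Myc target. Each gene was read on the probe set with the highest mean over the 7 arrays. All 45 genes were on the array, out of 18194 named genes, and 44 of them were among the 8203 genes tested, that is, genes with log2 expression of at least 5 on at least 2 arrays. Mycn, the neuronal relative of Myc, was not tested: its level lay between log2 3.23 and 3.64 on every array, near background.

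All transferred cells were CD44lo Ly5.1 OT-I cells stained with CFSE, a dye diluted at each division, and were sorted again from the host as CD8+ Ly5.1+ cells by their CFSE level. Naive cells were undivided cells from the spleen of B6 hosts without the antigen, taken 60 h after transfer (2 arrays). RIP-OVAhi cells came from the sacral and pancreatic lymph nodes of hosts that make ovalbumin under the rat insulin promoter, a model of deletional tolerance, also at 60 h (2 arrays). OCS/LPS cells came from the spleen of hosts primed with ovalbumin-coated splenocytes and lipopolysaccharide, a model of immunity, at 60 h (2 arrays). Rag cells came from the spleen of Rag-/- hosts, whose lack of lymphocytes makes transferred T cells divide without antigen, at 5 days (1 array). Cells of the last 3 groups had divided at least 2 times. Cells were pooled over 20 mice for each RIP-OVAhi array and over 10 mice for each other array, so there is no value per animal.

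Myc is a transcription factor that binds DNA as a pair with Max. The Mxd proteins, Mxi1 and Mnt also pair with Max, bind the same E-box sequence and act as repressors. Genes that build ribosomes are among the best known Myc targets: RNA polymerase I transcribes the ribosomal RNA, small nucleolar ribonucleoproteins (snoRNPs) modify it, and assembly factors mature the small and the large subunit. Activated T cells are known to raise Myc early after contact with antigen and to grow in size before they divide.

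The arrays were alike in overall signal, with medians between log2 2.97 and 3.08. All 9 CD8 T cell markers on the array lay between log2 9.94 and 13.2 on every array. The 9 markers of dividing cells summed to log2 49.4 and 55.2 on the naive arrays, 100.6 and 102 on the RIP-OVAhi arrays, 104 and 107 on the OCS/LPS arrays and 79.4 on the Rag array. The 5 MHC class II genes, markers of antigen-presenting cells, reached log2 5 in 3 to 4 cases on each naive, OCS/LPS and Rag array and in 0 cases on the RIP-OVAhi arrays (summed log2 24.4 to 24.6 naive, 24.6 to 27.8 OCS/LPS, 30.9 Rag, 15.6 to 17.0 RIP-OVAhi). Of 9 myeloid markers, 2 to 3 reached log2 5 on the naive arrays, 2 on the OCS/LPS arrays, 5 on the Rag array and 0 on the RIP-OVAhi arrays (summed log2 34.1 to 36.3, 33.8 to 34.7, 47.6 and 26.5 to 28.0). The log2 difference between the 3′ and the 5′ Gapdh control probe sets, a sign of RNA quality, was 2.43 to 2.59 on the naive arrays, 2.03 to 2.08 on the RIP-OVAhi arrays, 1.85 to 1.89 on the OCS/LPS arrays and 2.21 on the Rag array. Of the plasma cell markers, Jchain read log2 7.07 and 6.93 in naive cells, 1.65 and 2.28 in RIP-OVAhi cells, 8.01 and 8.45 in OCS/LPS cells and 1.65 in Rag cells, while Sdc1 and Prdm1 were below log2 5 on every array (summed log2 of the 5 markers 23.9 to 24.7 naive, 18.8 to 20.0 RIP-OVAhi, up to 29.1 OCS/LPS and 18.3 Rag, with 1 to 2 of 5 at log2 5). The 6 B cell markers summed to 22.3 to 24.1, 24.5 to 25.9, 27.7 to 30.1 and 21.2 in the same order, with 1 to 3 of 6 at log2 5. Cd22 among them read 4.04 and 3.59 in naive cells and 8.21 and 8.55 in OCS/LPS cells, and Cd79a, Pax5 and Blk were below log2 5 on every array. The 3 erythroid markers summed to 17.2 on the Rag array (2 of 3 at log2 5) and to 9.10 to 12.3 on the others (1 of 3). The 4 NK cell markers summed to 21.3 to 23.3, 20.2 to 20.6, 21.3 to 23.4 and 25.2, with 1 to 3 of 4 at log2 5 and Ncr1 below log2 5 on every array. These values move with the groups, and their part in the results below was not tested. The tissue and the RIP-OVAhi host cannot be told apart, nor can the 5 days and the Rag host. The naive arrays stood further apart (347 genes over 2-fold apart, r = 0.975 across genes) than the RIP-OVAhi arrays (28 genes, r = 0.991) or the OCS/LPS arrays (31 genes, r = 0.991). Across genes, which are not independent replicates, these r values describe the arrays.

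Among the Myc network genes, Myc itself was lower in both antigen-driven groups than in naive cells. On its single probe set its log2 expression was 10.01 and 10.48 in naive cells, 8.77 and 8.91 in RIP-OVAhi cells, 8.95 and 9.04 in OCS/LPS cells and 9.49 in Rag cells. Both naive arrays lay above all the others, and the Rag array lay between the naive arrays and the other 4. Myc was 2.65-fold lower in RIP-OVAhi than in naive cells (log2 difference -1.40, SE 0.18, limma adjusted p = 0.00362). It was 2.38-fold lower in OCS/LPS cells (log2 difference -1.25, SE 0.18, limma adjusted p = 0.0048). Between both antigen-driven groups the Myc difference, RIP-OVAhi minus OCS/LPS, was -0.15 with a 95% interval of -0.60 to 0.29 (limma adjusted p = 0.759), so a difference of up to 0.60 in log2 is within its error. In Rag cells Myc was at -0.75 against naive (95% interval -1.30 to -0.20, limma adjusted p = 0.165) and did not pass the test. Without the first naive array the Rag difference was -0.99 and passed (limma adjusted p = 0.0214). In bulk RNA, fewer cells that express a gene and less RNA per cell cannot be told apart.

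Mxd4 and Mxd1, which pair with Max in place of Myc, were higher in RIP-OVAhi than in naive cells. The level of Mxd4 was log2 8.35 and 9.38 in naive cells, 10.82 and 10.95 in RIP-OVAhi cells, 9.51 and 9.19 in OCS/LPS cells and 8.40 in Rag cells. Both RIP-OVAhi arrays lay above every other array, while the naive and OCS/LPS arrays overlapped. Mxd4 was 4.07-fold higher in RIP-OVAhi than in naive cells (log2 difference 2.02, SE 0.33, limma adjusted p = 0.00797) and 5.60-fold higher than on the Rag array (log2 difference 2.48, SE 0.41, limma adjusted p = 0.0131). Against OCS/LPS cells the Mxd4 difference was 1.54 (95% interval 0.72 to 2.35, limma adjusted p = 0.0886) and did not pass. The spread of this probe set comes largely from the naive pair: without the first or the second naive array the same difference had an adjusted p of 0.0167.

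A second Mxd4 probe set had a smaller spread. It read log2 4.94 and 4.98 in naive cells, 7.36 and 7.32 in RIP-OVAhi cells, 5.91 and 5.91 in OCS/LPS cells and 5.09 in Rag cells. The naive, RIP-OVAhi and OCS/LPS arrays did not overlap on it. When every probe set was fitted as a feature of its own, this one was called higher in RIP-OVAhi than in OCS/LPS cells (log2 difference 1.43, SE 0.12, limma adjusted p = 0.00664), as was the Mxd4 probe set with the lowest mean of the 3 (0.90, SE 0.13, limma adjusted p = 0.0367). Both were also called higher in OCS/LPS than in naive cells, with log2 differences of 0.95 and 0.71. The naive levels of these probe sets lay near background, so the sizes of their differences from naive hold on the GCRMA scale alone. Mxd1 stood at log2 6.98 and 6.69 in naive cells, 7.69 and 7.81 in RIP-OVAhi cells, 7.05 and 7.05 in OCS/LPS cells and 7.24 in Rag cells. It was 1.89-fold higher in RIP-OVAhi than in naive cells (log2 difference 0.92, SE 0.14, limma adjusted p = 0.00645). Against OCS/LPS cells its difference of 0.70 (95% interval 0.35 to 1.04) did not pass (limma adjusted p = 0.0755), and it passed without either naive array (limma adjusted p = 0.0289 in each case). Without the second RIP-OVAhi array neither Mxd4 nor Mxd1 was called against naive, and without the first Mxd4 was not (highest adjusted p 0.0754 for Mxd4 and 0.0669 for Mxd1).

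The other repressors did not follow Mxd4. Mxi1 was lowest in RIP-OVAhi cells, with log2 6.60 and 6.87 against 7.31 and 7.23 in naive cells, 7.21 and 7.43 in OCS/LPS cells and 8.17 in Rag cells. It was called lower in RIP-OVAhi than in naive cells (log2 difference -0.54, SE 0.15, limma adjusted p = 0.0433), a call lost when any 1 of the 6 naive, RIP-OVAhi and OCS/LPS arrays was left out (adjusted p up to 0.229). Against the Rag array Mxi1 was lower in RIP-OVAhi cells (-1.43, SE 0.18, limma adjusted p = 0.00623) and in OCS/LPS cells (-0.85, SE 0.18, limma adjusted p = 0.0304). Mnt was lowest in OCS/LPS cells, at log2 6.33 and 6.48, against 6.72 and 6.55 in RIP-OVAhi cells, 7.02 and 7.01 in naive and 7.20 in Rag cells. It was lower in OCS/LPS than in naive cells (-0.61, SE 0.13, limma adjusted p = 0.0158) and than on the Rag array (-0.79, SE 0.16, limma adjusted p = 0.0239). In RIP-OVAhi cells Mnt was at -0.38 against naive (limma adjusted p = 0.0732). Max, the shared partner, lay between log2 6.82 and 7.18 on all 7 arrays and was called in no comparison.

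**Figure D1:**
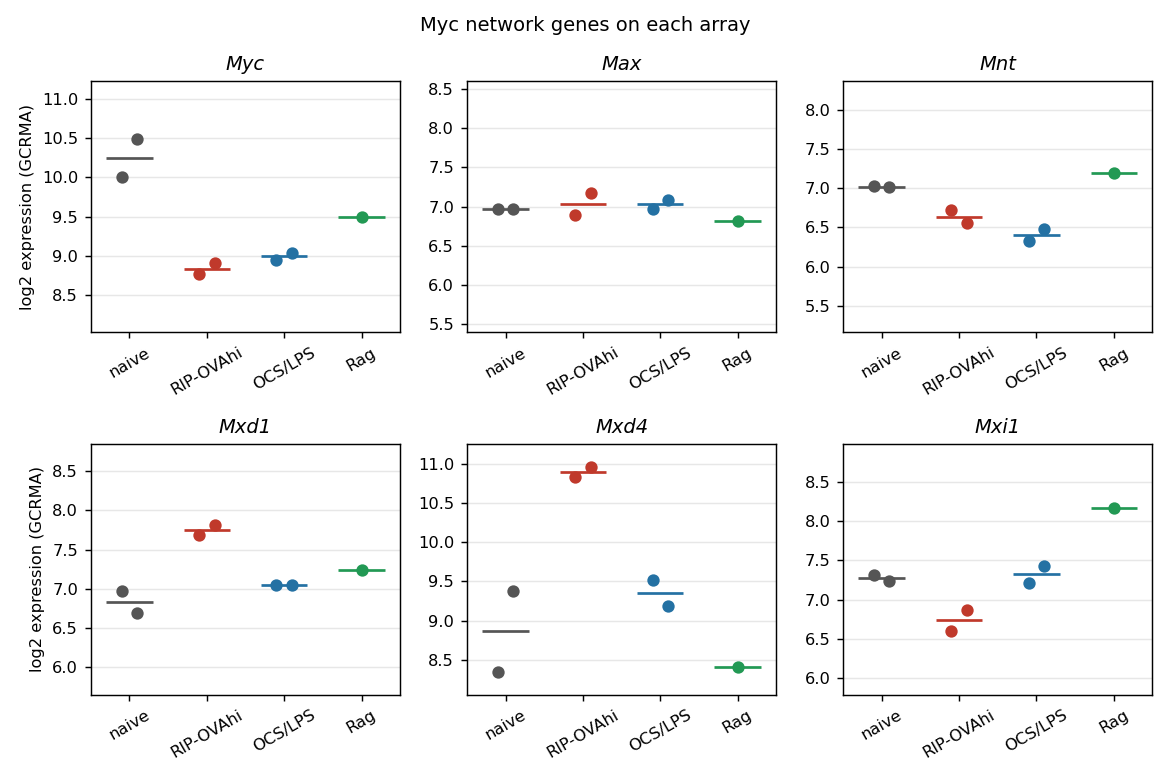
Log2 expression (GCRMA) of 6 Myc network genes, 1 point per array with a line at the group mean, for naive, RIP-OVAhi, OCS/LPS and Rag cells; every panel spans the same log2 range. Myc is highest on the 2 naive arrays (10.01 and 10.48), Mxd4 on the 2 RIP-OVAhi arrays (10.82 and 10.95) and Mxi1 on the Rag array (8.17), while Max stays between 6.82 and 7.18.

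The question of the first 2 comparisons is how cells driven by antigen differ from undivided cells. In RIP-OVAhi cells 14 of the 37 ribosome biogenesis genes (37.8%) were lower than in naive cells and 0 were higher (limma). At an unadjusted p under 0.05, limma gave 20 lower and 0 higher. Shares of all tested genes called, here and below, are at an adjusted p under 0.05. None was computed for the unadjusted counts, which therefore describe these genes alone. Of all 44 tested genes, 16 were lower (36.4%) and 2 higher (4.55%), beside 11.6 percent lower and 18.1 percent higher among all 8203 tested genes. The median log2 difference was -0.37 over the 44 genes and 0.06 over all tested genes. In OCS/LPS cells 6 of the 37 (16.2%) were lower and 0 higher (limma, with 11 lower and 1 higher at an unadjusted p under 0.05). That lower share was near the 12.3 percent of all tested genes, while the higher share was below their 20.5 percent. Of all 44 genes, 8 were lower (18.2%) and 1 higher (2.27%), beside 12.3 percent lower and 20.5 percent higher among all tested genes, with medians of -0.24 and 0.08. Both comparisons use the same naive arrays, and 7 genes were called lower in both: 7 of the 16 and 7 of the 8. The share of all tested genes called lower in both was not computed, so no excess can be read from this overlap. Quantile normalization, part of GCRMA, gives all arrays nearly the same distribution, so these are changes relative to the other genes and not per cell.

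These counts rest on few arrays. Without the first or the second RIP-OVAhi array, 4 and 5 of the 44 genes were lower in RIP-OVAhi than in naive cells, beside 296 of 8170 and 256 of 8172 genes tested in those fits. Leaving out either OCS/LPS array also gave fewer lower genes in that comparison, both among the 44 and among all tested genes. For OCS/LPS against naive, 2 genes were lower without the first OCS/LPS array and 4 without the second, beside 322 of 8171 and 326 of 8157 genes tested in those fits. Myc and Tsr1 were called lower in both comparisons whichever single array was left out, with adjusted p at most 0.0479 for Myc and 0.0361 for Tsr1.

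Small subunit assembly held 5 lower genes of 10 in RIP-OVAhi and 3 of 10 in OCS/LPS cells. Among all tested genes 11.6 percent and 12.3 percent were lower. Tsr1, a late maturation factor of the small subunit, read log2 11.87 and 11.68 in naive cells, 10.69 and 10.71 in RIP-OVAhi cells, 10.80 and 10.83 in OCS/LPS cells and 11.58 in Rag cells. All 4 antigen-driven arrays lay below the other 3. Tsr1 was 2.11-fold lower in RIP-OVAhi (log2 difference -1.08, SE 0.12, limma adjusted p = 0.0024) and 1.95-fold lower in OCS/LPS cells (-0.96, SE 0.12, limma adjusted p = 0.00318) than in naive cells. Utp20, a scaffold of the small subunit processome, showed the same layout, with log2 9.34 and 9.23 in naive cells, 8.43 and 8.44 in RIP-OVAhi cells, 8.31 and 8.59 in OCS/LPS cells and 9.29 in Rag cells. Its differences from naive were -0.85 and -0.83 (SE 0.14 each, limma adjusted p = 0.00814 and 0.00772). Wdr43, another processome protein, stood at log2 10.63 and 10.44 in naive cells, 9.60 and 9.66 in RIP-OVAhi cells, 9.95 and 10.02 in OCS/LPS cells and 10.26 in Rag cells. The 3 groups of 2 arrays did not overlap, and Wdr43 differed from naive by -0.91 (SE 0.13, limma adjusted p = 0.0046) and -0.55 (SE 0.13, limma adjusted p = 0.0209). On a second Wdr43 probe set the differences were -0.42 and -0.35 and neither passed.

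Rrp12, needed for export of the subunits, and Rrp9, a protein of the U3 snoRNP, were called lower than naive in RIP-OVAhi cells and not in OCS/LPS cells. Rrp12 read log2 7.75 and 7.79 in naive cells, 7.04 and 6.55 in RIP-OVAhi cells, 7.19 and 7.44 in OCS/LPS cells and 7.64 in Rag cells, a difference of -0.98 in RIP-OVAhi (SE 0.20, limma adjusted p = 0.0151) and -0.45 in OCS/LPS cells. Its 2 RIP-OVAhi arrays differed by about as much as the OCS/LPS group lay below naive. Rrp9 differed by -0.56 in RIP-OVAhi cells (SE 0.13, limma adjusted p = 0.0264). For neither gene did the test between RIP-OVAhi and OCS/LPS cells pass. The other 5 small subunit genes, Nop14, Nob1, Bysl, Noc4l and Heatr1, were called in no comparison on these probe sets.

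Large subunit assembly held 8 lower genes of 16 (50%) in RIP-OVAhi and 3 of 16 (18.8%) in OCS/LPS cells. The shares of all tested genes were 11.6 percent and 12.3 percent. Gnl3 (nucleostemin), a nucleolar GTP-binding protein, read log2 11.11 and 10.90 in naive cells, 10.01 and 10.03 in RIP-OVAhi cells, 9.92 and 10.27 in OCS/LPS cells and 10.88 in Rag cells. Its differences from naive were -0.99 (SE 0.16, limma adjusted p = 0.00802) and -0.91 (SE 0.16, limma adjusted p = 0.00945). Ppan, an assembly factor related to fly peter pan, was at log2 7.83 and 7.55 in naive cells, 6.61 and 6.99 in RIP-OVAhi cells, 6.55 and 6.74 in OCS/LPS cells and 7.72 in Rag cells. It differed from naive by -0.89 (SE 0.19, limma adjusted p = 0.0168) in RIP-OVAhi and by -1.05 (SE 0.19, limma adjusted p = 0.00916) in OCS/LPS cells. For both genes the naive and Rag arrays lay above all 4 antigen-driven arrays. Rrs1, which helps to place the ribosomal RNA of the central protuberance, differed from naive by -0.71 (SE 0.14, limma adjusted p = 0.0134) and -0.50 (SE 0.14, limma adjusted p = 0.0363). Its log2 levels were 11.56 and 11.40 in naive cells, 10.68 and 10.86 in RIP-OVAhi cells, 10.91 and 11.05 in OCS/LPS cells and 11.32 in Rag cells. With its second probe set in the fit the differences were -0.46 and -0.32 and neither passed; the OCS/LPS call was also lost with arrays centred on their median.

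Another 5 large subunit genes were called lower in RIP-OVAhi cells and not in OCS/LPS cells. Grwd1, a WD repeat protein of the assembling large subunit, had the largest difference of the ribosome biogenesis genes, -1.10 (SE 0.27, limma adjusted p = 0.0299), and also an uneven naive pair. Its log2 levels were 8.65 and 9.51 in naive cells, 8.00 and 7.96 in RIP-OVAhi cells, 8.22 and 8.15 in OCS/LPS cells and 8.35 in Rag cells, and its other 2 probe sets gave -0.39 and -0.62, neither of them called. Noc2l, a nucleolar complex protein, was at -0.91 (SE 0.17, limma adjusted p = 0.0128), with log2 9.35 and 9.34 in naive against 8.27 and 8.61 in RIP-OVAhi cells. Nop2, which methylates large subunit ribosomal RNA, was at -0.77 (SE 0.15, limma adjusted p = 0.0131), with log2 8.40 and 8.54 against 7.85 and 7.55. Ddx21, an RNA helicase, differed by -0.66 (SE 0.17, limma adjusted p = 0.0302), a call lost with arrays centred on their median, and by -0.18 with no call on its second probe set. Noc2l was at -0.46 with no call on its second probe set. The last of the 5, Pes1 (pescadillo), differed by -0.58 (SE 0.13, limma adjusted p = 0.0229). In all 5 genes both naive arrays lay above both RIP-OVAhi arrays, as in 32 of the 44 tested genes. The 5 were picked by their calls in this same comparison, so the order adds no support. Its share over all tested genes was not computed. In OCS/LPS cells the differences of the 5 genes from naive ran from -0.17 for Pes1 to -0.89 for Grwd1, the latter with a limma adjusted p of 0.0526. The difference between RIP-OVAhi and OCS/LPS cells passed for none of the 5.

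Nucleolar scaffold genes and RNA polymerase I subunits held fewer calls. The lower share of the scaffold genes in RIP-OVAhi cells, 14.3%, was near the 11.6 percent of all tested genes. In OCS/LPS cells it was 0%, beside 12.3 percent. Both groups are small, and differences between roles were not tested. Fbl (fibrillarin), the methyltransferase at the core of snoRNPs, was the 1 lower gene of 7 in RIP-OVAhi cells, with log2 11.66 and 11.92 in naive cells, 11.28 and 11.23 in RIP-OVAhi cells, 11.48 and 11.61 in OCS/LPS cells and 11.70 in Rag cells (difference from naive -0.54, SE 0.14, limma adjusted p = 0.0335). Its second probe set gave -0.41 with no call. Its partner Nop56 was at -0.66 (95% interval -1.17 to -0.14, limma adjusted p = 0.0627). Npm1 (nucleophosmin) lay between log2 13.99 and 14.14 and Ncl (nucleolin) between 13.36 and 13.81 over the 7 arrays, and neither was called in any comparison. Nop58, Dkc1 and Nolc1 were likewise not called on these probe sets. Of the 4 RNA polymerase I subunit genes, 0 were called against naive in either group. Polr1b, the second largest subunit, had an estimate of -0.99 in RIP-OVAhi cells, but its 2 arrays read log2 6.99 and 6.31, its OCS/LPS arrays 6.56 and 7.60, and the 95% interval ran from -1.96 to -0.03 (limma adjusted p = 0.112).

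Odc1, the rate-limiting enzyme of polyamine synthesis, was the 1 gene of the 44 called higher in OCS/LPS than in naive cells. Its log2 levels were 12.42 and 12.68 in OCS/LPS cells, 12.13 and 11.82 in naive cells, 12.16 and 12.10 in RIP-OVAhi and 11.91 in Rag cells. It was 1.49-fold higher (log2 difference 0.57, SE 0.16, limma adjusted p = 0.042). That call was lost in 5 of the 7 fits that left out an array, so it is close to the threshold, with an adjusted p of up to 0.222. On its other 2 probe sets the OCS/LPS difference from naive was 1.05 (limma adjusted p = 0.012) and 0.96 (limma adjusted p = 0.0399). One of these was also called higher in RIP-OVAhi cells (0.79, limma adjusted p = 0.0323).

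**Figure D2:**
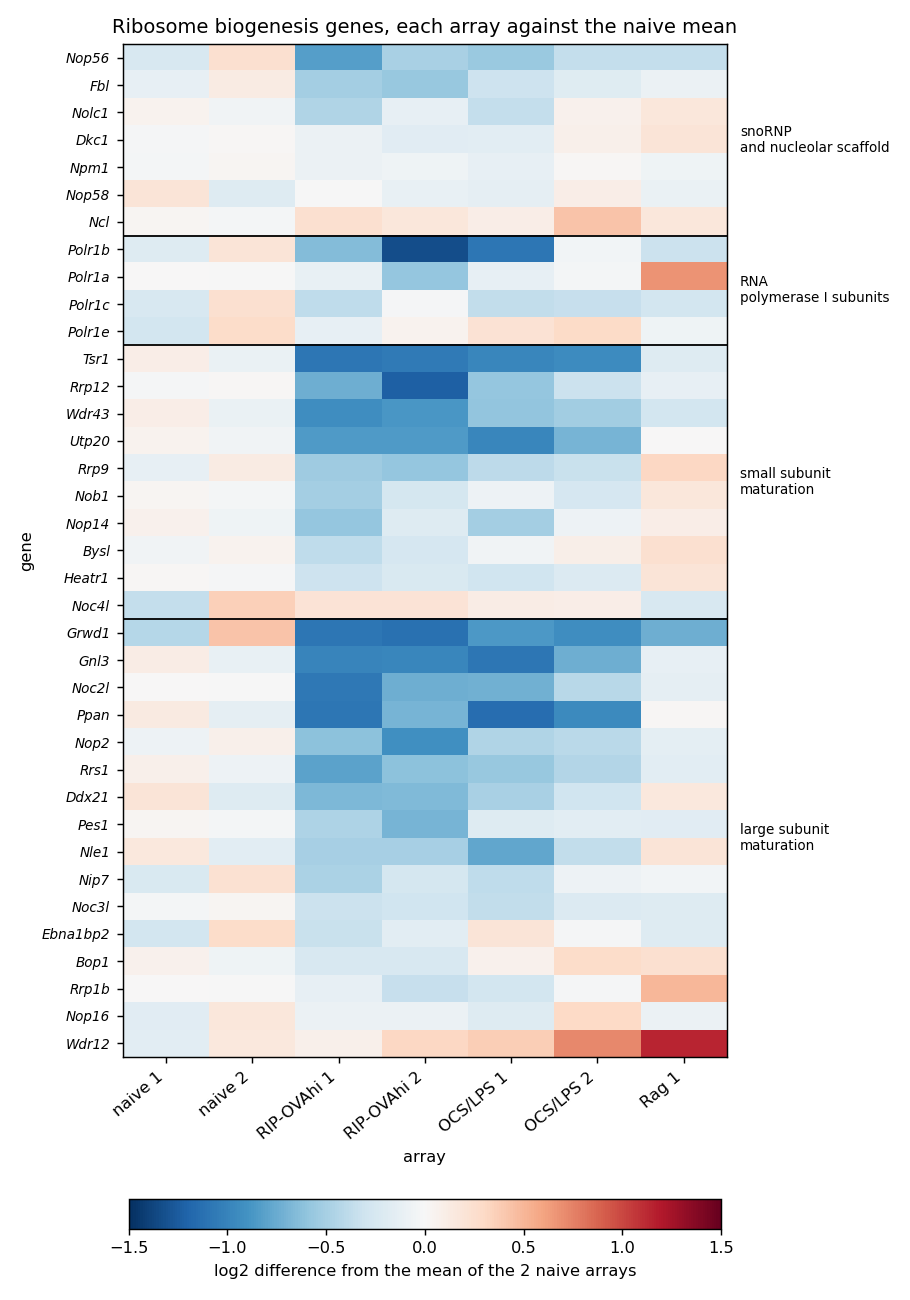
Log2 difference of each of the 7 arrays (columns) from the mean of the 2 naive arrays, for the 37 ribosome biogenesis genes (rows), grouped by role and ordered within a role by the RIP-OVAhi mean; blue is lower and red higher. The blue rows are mostly in the small and large subunit groups on the RIP-OVAhi and OCS/LPS arrays (Tsr1, Utp20, Wdr43, Gnl3, Ppan), and the most intense red cell is Wdr12 on the Rag array (log2 8.90 against 7.61 and 7.92 in naive cells).

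**Figure D3:**
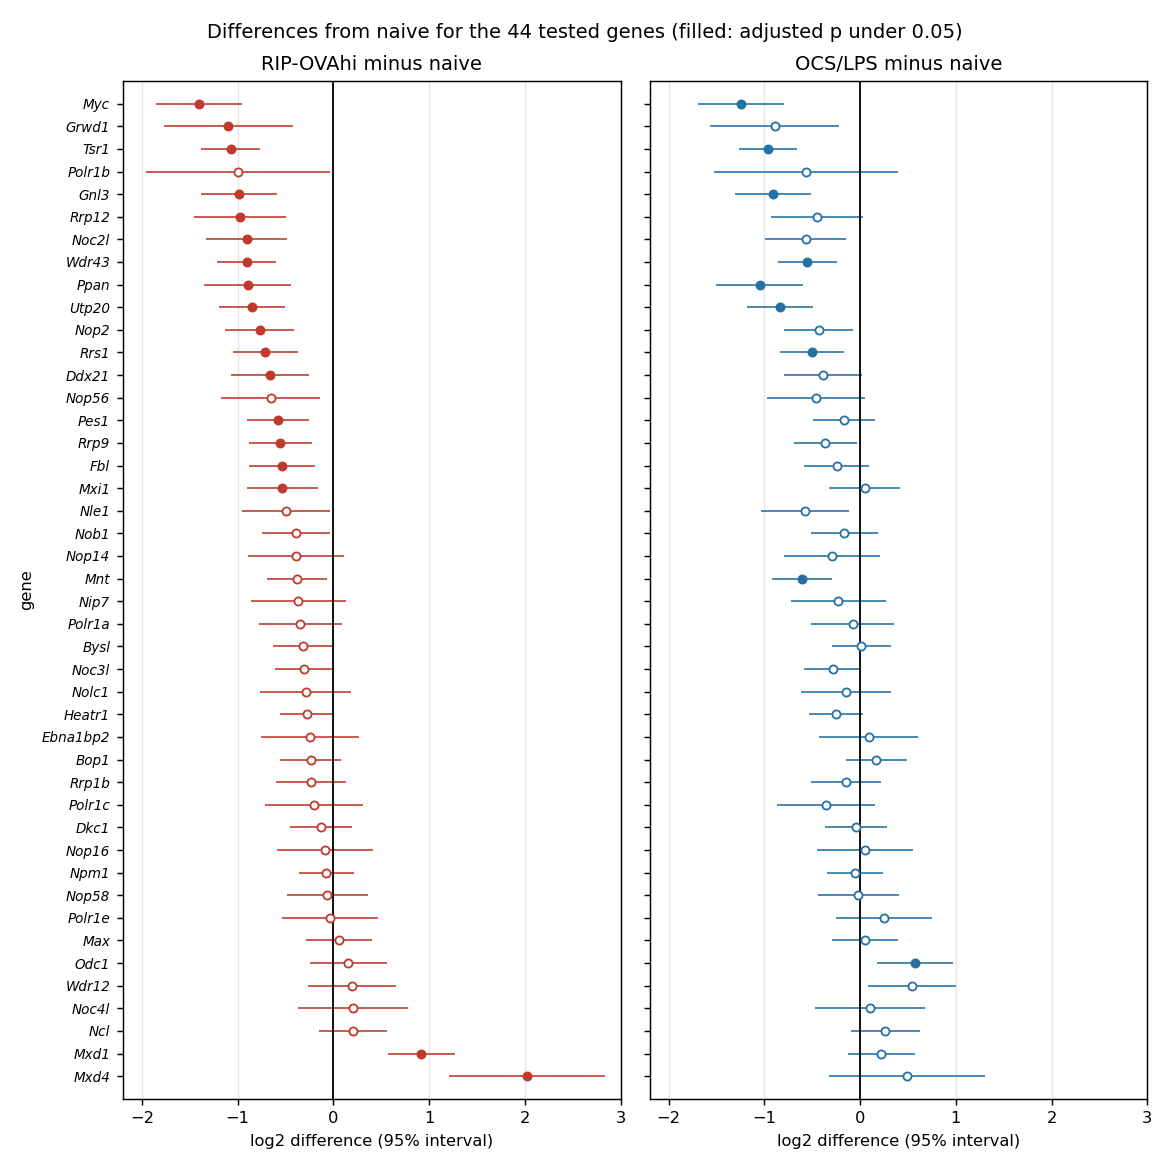
Log2 difference from naive with its 95% interval (limma) for the 44 tested genes, RIP-OVAhi on the left and OCS/LPS on the right, in the order of the RIP-OVAhi estimate; filled points passed at an adjusted p under 0.05. In RIP-OVAhi cells 16 genes are filled below 0 and 2 above (Mxd1 and Mxd4), and in OCS/LPS cells 8 below and 1 above (Odc1).

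E-boxes were looked up in the promoters of these genes because CACGTG is the sequence that Myc and Max, and the Mxd proteins with Max, are known to bind. RefSeq promoters of GRCm38.p6, from 250 bases before to 50 bases after the start, were in the table for 39 of the 45 genes. Bop1, Npm1, Fbl, Myc, Rrs1 and Rrp12 had no entry. CACGTG, which reads the same on both strands, was present for 10 of the 39 genes (25.6%), for 12.7% of 6768 tested genes and for 8.09% of 27025 genes in the table. Among the 12 matched genes called lower in RIP-OVAhi than in naive cells, 6 held it (50%), beside 4 of the 26 other tested genes of the set (15.4%). The share among all tested genes called lower was not computed, so the split has no matching background. Median promoter GC content was 62.3% in the 12 genes, 59% in the 26 and 61% in all tested genes. The related sequence CACGCG, searched on both strands (CGCGTG), was present for 28.2% of the 39 genes and 21.4% of tested genes. The window and the split by call were chosen with the calls in view, and a match describes these letters and not a bound site.

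The 6 lower genes with an E-box are shown as 30 bases around it, 5′ to 3′ on the strand of the gene, with the E-box in capitals, as the genes of the set that were both lower and held the motif.
Grwd1, chr7:45830740-45830769, minus strand: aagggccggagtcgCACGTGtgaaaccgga
Nop2, chr6:125131811-125131840, plus strand: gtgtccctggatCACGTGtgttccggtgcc
Pes1, chr11:3963965-3963994, plus strand: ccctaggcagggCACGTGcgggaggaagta
Tsr1, chr11:74898092-74898121, plus strand: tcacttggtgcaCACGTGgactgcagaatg
Utp20, chr10:88826765-88826794, minus strand: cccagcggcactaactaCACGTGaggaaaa
Wdr43, chr17:71616220-71616249, plus strand: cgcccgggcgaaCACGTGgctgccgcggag
Counted from the start, the E-box began at position 35 in Grwd1, -60 in Nop2, 3 in Pes1, 25 in Tsr1, 38 in Utp20 and 18 in Wdr43, so 5 of the 6 lay just after the start and 1 before it.

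For a lower and a higher gene side by side, the 250 bases before the start are given for Nop2, lower in RIP-OVAhi cells, and for Mxd4, higher in them, with the E-box in capitals.
Nop2, chr6:125131633-125131882, plus strand: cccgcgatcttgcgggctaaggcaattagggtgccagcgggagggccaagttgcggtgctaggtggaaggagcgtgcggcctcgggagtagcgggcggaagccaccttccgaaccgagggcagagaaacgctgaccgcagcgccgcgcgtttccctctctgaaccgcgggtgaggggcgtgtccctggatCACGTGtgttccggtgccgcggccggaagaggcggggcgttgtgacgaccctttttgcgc
Mxd4, chr5:34187711-34187960, minus strand: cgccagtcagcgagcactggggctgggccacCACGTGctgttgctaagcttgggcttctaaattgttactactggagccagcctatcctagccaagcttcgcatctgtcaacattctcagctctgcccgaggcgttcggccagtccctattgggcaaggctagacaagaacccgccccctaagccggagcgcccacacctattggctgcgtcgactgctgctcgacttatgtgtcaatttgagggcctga
The Mxd4 E-box began at position -219, further from the start than in Nop2. The other 3 E-boxes of the set were at position -3 in Max, -123 in Mnt and 24 in Nle1. None of these 3 genes was called in RIP-OVAhi against naive cells, Mnt was lower in OCS/LPS cells, and the E-box was present in genes that were lower, higher and not called.

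Rag cells, which had divided without the antigen, gave no call against naive cells in these genes. In that comparison 0 of the 44 genes were called in either direction by limma, beside 0.585 percent lower and 2.15 percent higher among all tested genes. At an unadjusted p under 0.05, limma gave 1 gene lower, Myc, and 4 higher. The median difference was -0.07 over the 44 genes and 0.04 over all tested genes. The Rag group is 1 array, so its spread was taken from the other groups, and all 3 comparisons with it have a larger SE than those between groups of 2 arrays. The largest estimates above 0 were Wdr12 at 1.14 (95% interval 0.58 to 1.70, limma adjusted p = 0.0698), Mxi1 at 0.90 (0.44 to 1.35, limma adjusted p = 0.0739) and Polr1a, the largest subunit of RNA polymerase I, at 0.68 (0.15 to 1.21, limma adjusted p = 0.189). Below 0 they were Myc at -0.75 and Grwd1 at -0.74. Without the first naive array 3 genes were called higher (Mxd1, Mxi1 and Wdr12) and 4 lower (Grwd1, Mxd4, Myc and Noc4l), beside 916 and 686 of 8149 genes tested. Without the second naive array there were 0 such genes among the 44.

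Set against the Rag array, 11 of the 44 genes were lower in RIP-OVAhi cells (25%) and 1, Mxd4, was higher, beside 6.9 percent lower and 9.84 percent higher among all tested genes. The lower genes were Mxi1, Polr1a, Wdr12, Ppan, Tsr1, Rrp9, Gnl3, Utp20, Ddx21, Rrp1b and Wdr43. Polr1a stood at log2 7.55 on the Rag array and at 6.76 and 6.30 in RIP-OVAhi cells (difference -1.02, SE 0.22, limma adjusted p = 0.0285). Rrp9 stood at 7.56 against 6.71 and 6.66 (-0.87, SE 0.16, limma adjusted p = 0.0198). With second probe sets in the fit, the calls of Polr1a, Ppan, Rrp1b, Ddx21 and Wdr43 in RIP-OVAhi cells against Rag were lost. Those of Rrp1b, Ddx21 and Wdr43 were also lost with arrays centred on their median. At an unadjusted p under 0.05, limma gave 13 genes lower and 1 higher in OCS/LPS cells than on the Rag array. At the adjusted threshold 7 were lower (15.9%) and 0 higher, beside 6.9 percent lower and 11.2 percent higher among all tested genes. These were Ppan, Mxi1, Utp20, Mnt, Gnl3, Tsr1 and Rrp9, with Ppan at -1.07 (SE 0.23, limma adjusted p = 0.0284). The Rag array lay above all 4 antigen-driven arrays in 29 of the 44 genes. The share of all tested genes with this order was not computed, so no excess can be read from it. Both counts moved with single arrays: the 11 became 1 without either RIP-OVAhi array, 2 without either OCS/LPS array and 19 without either naive array. The count over all tested genes moved with it, from 566 to 131 and 129, to 247 and 242 and to 1117 and 1123. The 7 became 0 without any 1 of the RIP-OVAhi or OCS/LPS arrays and 12 without either naive array, while 566 genes of all tested became 106 to 197 and then 1149 and 1158.

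The comparison of tolerance with immunity gave no call on the probe sets with the highest mean, while the other 2 Mxd4 probe sets, given above, were called higher in RIP-OVAhi cells. In RIP-OVAhi against OCS/LPS cells limma called 0 of the 44 genes lower and 0 higher, beside 1.3 percent lower and 1.61 percent higher among all tested genes. At an unadjusted p under 0.05 there were 7 genes lower and 2 higher, Mxd1 and Mxd4. The median difference was -0.15 over the 44 genes and -0.05 over all tested genes. In 30 of the 44 genes RIP-OVAhi cells had the lowest of the 4 group means, and 36 of the 44 estimates against OCS/LPS cells lay below 0. This is a description and was not tested over the list. Neither share was computed over all tested genes, whose median of -0.05 also lay below 0, so no excess can be read from them. Among the ribosome biogenesis genes the RIP-OVAhi minus OCS/LPS estimates ran from -0.52 to 0.16. Leaving out either naive array left the differences of Mxd1 and Mxd4 at 0.70 and 1.54. Both then passed the threshold, but more of all tested genes passed it too in those fits. No gene of the 44 was called lower in any fit that was run.

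**Figure D4:**
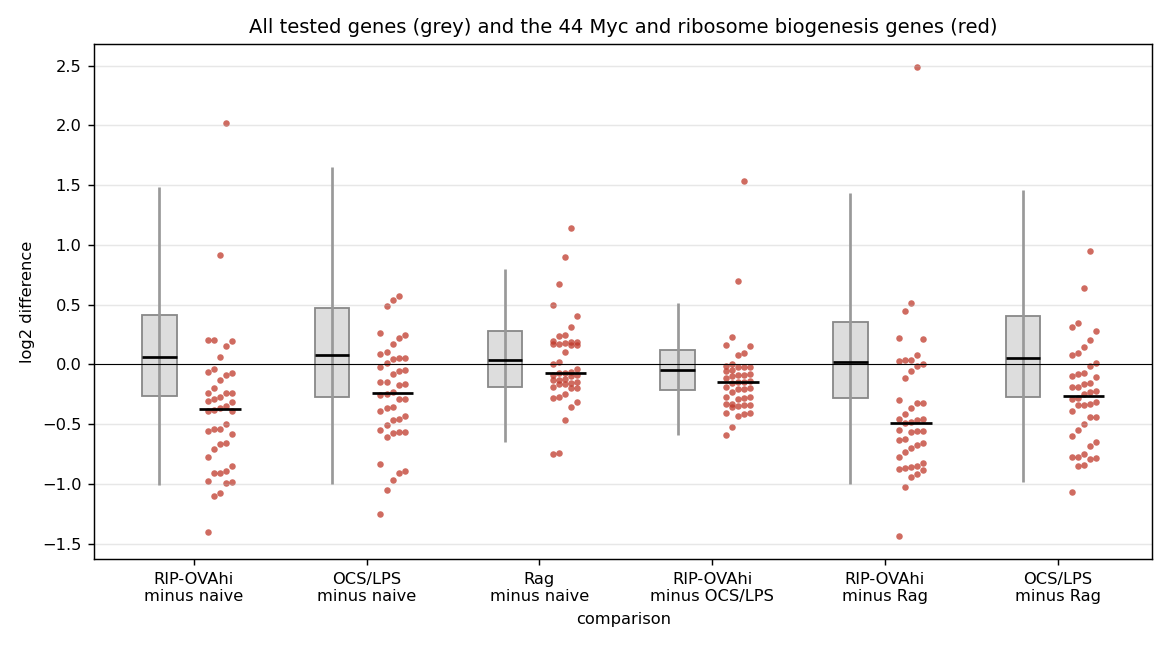
Log2 differences in the 6 comparisons for all tested genes (grey: box from the 25th to the 75th percentile, line from the 5th to the 95th, bar at the median) and for the 44 Myc and ribosome biogenesis genes (red points, bar at the median). The red medians lie at -0.37 and -0.24 in RIP-OVAhi and OCS/LPS against naive and at -0.49 and -0.26 against Rag, and at -0.07 in Rag against naive.

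Probe sets of 1 gene did not always give the same picture. Of the 44 genes, 25 had at least 2 probe sets that reached log2 5, and their estimates differed in sign for 6 genes in RIP-OVAhi and for 10 in OCS/LPS against naive. No gene had probe sets called in opposite directions. Fitted one by one, 22 of 79 probe sets of these genes were lower in RIP-OVAhi than in naive cells and 5 higher, beside 11.5 percent lower and 16.4 percent higher among 13853 probe sets. In OCS/LPS cells 13 were lower and 6 higher, beside 12.8 percent and 19.6 percent. In Rag against naive cells 0 of the 79 were called (limma), beside 0.484 percent lower and 1.4 percent higher, and in RIP-OVAhi against OCS/LPS cells 0 were lower and 2 higher, both of Mxd4, beside 0.873 percent and 1.12 percent. Against the Rag array 9 were lower and 3 higher in RIP-OVAhi cells, beside 6.33 percent and 8.32 percent, and 8 were lower and 1 higher in OCS/LPS cells, beside 6.41 percent and 9.35 percent.

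The clearest case was the complex of Pes1, Bop1 and Wdr12, which matures the large subunit ribosomal RNA. On the probe set with the higher mean, Wdr12 read log2 7.61 and 7.92 in naive cells, 7.84 and 8.08 in RIP-OVAhi cells, 8.13 and 8.48 in OCS/LPS cells and 8.90 in Rag cells, with no call against naive. The other Wdr12 probe set read log2 7.33 and 6.89 in naive cells, 5.89 and 5.46 in RIP-OVAhi cells, 5.91 and 6.35 in OCS/LPS cells and 8.09 in Rag cells. On it Wdr12 differed from naive by -1.44 in RIP-OVAhi (limma adjusted p = 0.011) and by -0.98 in OCS/LPS cells (limma adjusted p = 0.0316). The Rag array was the highest on both probe sets. For Bop1 the first probe set gave -0.24 and 0.17 with no call, and the second gave -1.10 (limma adjusted p = 0.00545) and -0.92 (limma adjusted p = 0.00838). Pes1 went the other way: its first probe set was called lower in RIP-OVAhi cells, and its second, at log2 4.79 to 5.50 over the arrays, gave 0.37 with no call. Bysl (bystin), of the small subunit, had no call on its first probe set and differed by -1.20 and -0.83 on its second. Dkc1, the pseudouridine synthase of the snoRNPs, had no call on its first probe set, and the other 2 gave -1.04 and -0.93 in RIP-OVAhi cells, both called. Which probe set measures the full-length transcript was not tested.

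**Figure D5:**
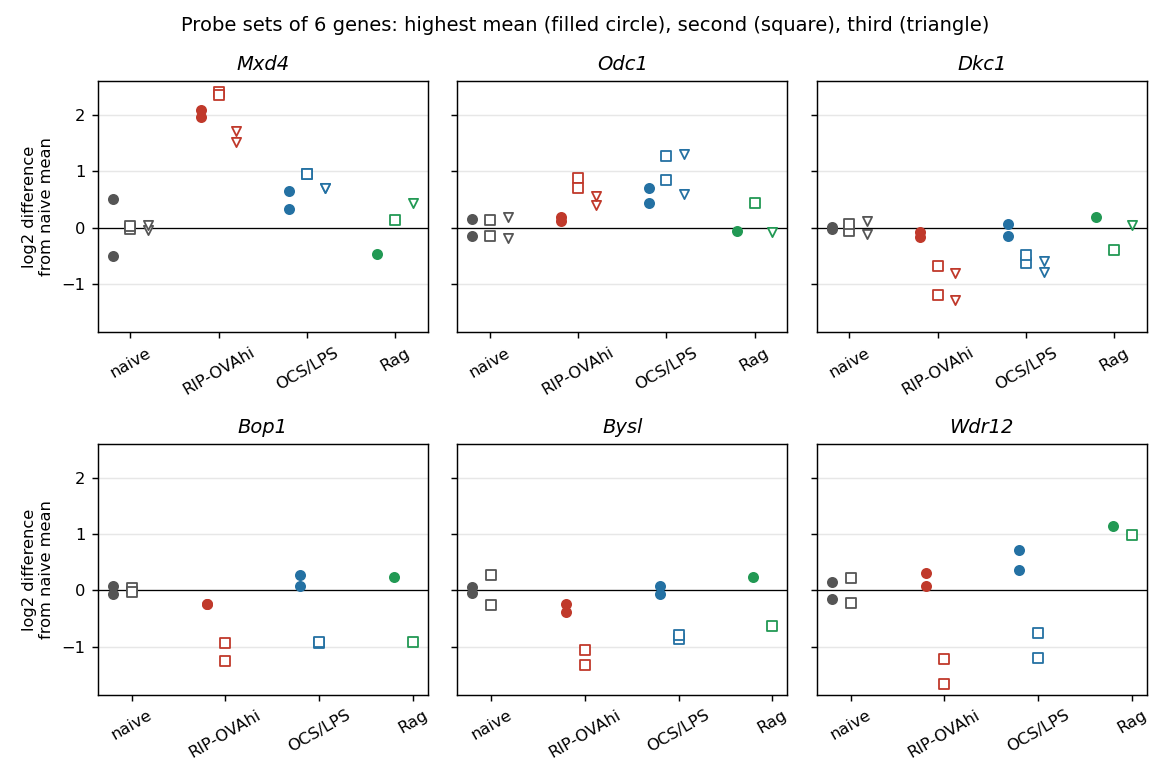
Log2 difference of each array from the naive mean for up to 3 probe sets of 6 genes, 1 point per array: filled circles for the probe set with the highest mean, open squares for the second and open triangles for the third. Mxd4 is raised in RIP-OVAhi cells on all 3 probe sets, whereas Dkc1, Bop1, Bysl and Wdr12 lie lower in RIP-OVAhi and OCS/LPS cells on the second probe set (-1.44 for Wdr12 in RIP-OVAhi), where all 4 were called in RIP-OVAhi cells, and were not called on the first.

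Further genes of the pathway, from lists that do not overlap with the 45, moved in both directions. Of 86 other ribosome biogenesis genes tested, 16 were lower and 5 higher in RIP-OVAhi than in naive cells (18.6% and 5.81%, median -0.23), and 10 were lower and 6 higher in OCS/LPS cells (11.6% and 6.98%, median -0.02). Among all tested genes these shares were 11.6 percent lower and 18.1 percent higher in RIP-OVAhi and 12.3 percent and 20.5 percent in OCS/LPS cells, so the lower share of this list in OCS/LPS cells was near that of all genes. The lower ones included Ltv1, a small subunit export factor, at -1.17 in RIP-OVAhi cells (SE 0.12, limma adjusted p = 0.00152), and Gnl2, a nucleolar GTPase, at -1.13 and -1.15. Wdr46, a processome protein, was at -0.99 in RIP-OVAhi and Mdn1 (midasin), the large remodelling ATPase, at -1.37 in OCS/LPS cells. Nvl, another ATPase of large subunit assembly, was higher, at 1.13 and 1.30, and Utp6 was higher in OCS/LPS cells at 1.08. Wdr46, Mdn1 and Utp6 lay on the same side of naive in the other group too. Their mean log2 levels in naive, RIP-OVAhi and OCS/LPS cells were 10.97, 9.98 and 10.20 for Wdr46 and 9.20, 8.40 and 7.84 for Mdn1. For Utp6 they were 8.07, 9.02 and 9.16. None of the 86 was called in Rag against naive cells or in RIP-OVAhi against OCS/LPS cells. Against the Rag array, 3 were lower in RIP-OVAhi cells (Ltv1, Nat10 and Pwp2) and 1 higher (Ubtf), and 1 was lower in OCS/LPS cells (Urb1). These are 3.49% lower and 1.16% higher in RIP-OVAhi cells, beside 6.9 percent and 9.84 percent of all tested genes. In OCS/LPS cells the lower share was 1.16%, beside 6.9 percent. Both lower shares of this list were thus below those of all tested genes, unlike those of the 44 genes.

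Of 15 other Myc network genes tested, 2 were lower and 0 higher in RIP-OVAhi than in naive cells, and 2 were lower and 4 higher in OCS/LPS cells. The lower share, 13.3% in both, was near the 11.6 percent and 12.3 percent of all tested genes. Mga, a repressor that pairs with Max, was lower in both, at -1.10 and -1.22, as was the acetyltransferase gene Kat2a at -0.55 and -0.74. Mxd3, another Max partner, was higher in OCS/LPS cells at 1.78 (SE 0.31, limma adjusted p = 0.00894), with log2 6.19 and 7.16 in naive against 8.55 and 8.36 in OCS/LPS cells. Its RIP-OVAhi arrays, at log2 7.63 and 7.82, also lay above both naive arrays, with no call. Pim1, a kinase known to act with Myc, was the 1 gene of this list called in Rag against naive cells, at 2.06 (SE 0.24, limma adjusted p = 0.0143). It was lower than on the Rag array in RIP-OVAhi (-2.06) and OCS/LPS cells (-1.53).

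Of 27 other textbook Myc targets, 5 were lower and 3 higher in RIP-OVAhi than in naive cells and 4 lower and 6 higher in OCS/LPS cells, with medians of 0.07 and 0.23. These are 18.5% and 11.1% in RIP-OVAhi, beside 11.6 percent and 18.1 percent of all tested genes, and 14.8% and 22.2% in OCS/LPS cells, near the 12.3 percent and 20.5 percent of all tested genes. Srm, the spermidine synthase downstream of Odc1, was lower at -0.88 and -0.76, and Slc3a2, a subunit of amino acid transporters, at -0.78 and -0.80. Bcat1, which acts on branched-chain amino acids, was called higher in both groups, with log2 5.78 and 5.22 in RIP-OVAhi cells and 5.73 and 6.86 in OCS/LPS cells. Its naive levels (log2 3.06 and 2.94) lay near background, so the size of the difference is not given. Ccnd2 (cyclin D2) was lower in both groups, at -0.79 and -1.91, with log2 12.44 and 12.64 in naive cells, 11.72 and 11.77 in RIP-OVAhi and 10.76 and 10.49 in OCS/LPS cells. It was the 1 gene of these 3 lists called between RIP-OVAhi and OCS/LPS cells, higher in RIP-OVAhi by 1.12 (SE 0.15, limma adjusted p = 0.0209).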

How the data were processed

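RNA was measured on 7 Affymetrix mouse arrays: naive 2, RIP-OVAhi 2, OCS/LPS 2 and Rag 1. Per the labels' protocols, 100 ng of total RNA was amplified before labelling. The authors deposited log2 expression values of 45101 probe sets, computed by GCRMA per the submitters' processing notes (version not given in the sources used here). This method subtracts background, quantile-normalizes the arrays and joins the probes of a set into 1 value, which hides any shift common to most genes. Arrays have no read depth, and precision is set by their number.

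Gene names came from the platform annotation, for the 34958 probe sets with 1 symbol; 34754 of them were matched to RefSeq genes of GRCm38.p6. With limma 3.58.1 (R 4.3.3), 1 linear model with group means was fitted to the 7 arrays for the 8203 genes with log2 of at least 5 on at least 2 arrays, followed by eBayes. It had 3 residual and 2.93 prior degrees of freedom. Two-sided p-values were adjusted by Benjamini-Hochberg over all tested genes of each of the 6 comparisons, and genes were called at an adjusted p under 0.05. Scripts were tested on simulated data. Whether the pools of a group are separate experiments is not in the labels, so the p-values cover the spread between these arrays and part of that may be technical.

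The 45 genes, the other lists and the alternatives were chosen with earlier results of these data known. Named genes were the Myc network, up to 6 called genes per direction and comparison and up to 4 called genes of each other list; second probe sets, Polr1b, Nop56 and further called genes were named after their values were seen. The 3 groups of 2 share replicate numbers, which the labels tie to no batch. Scanner files were not used here.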

Additional observations from a re-analysis of the deposited data

How the results depend on the processing

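Each result was recomputed under 14 other settings, and 3540 values of single genes were obtained. Of these, 3088 kept their direction and side of the threshold, 192 lost a call, 96 gained one, 156 uncalled values changed sign and 8 were reversed. The reversals all came from the probe set. With the mean of all probe sets of a gene, Wdr12 was at -0.42 in RIP-OVAhi and Bop1 at -0.38 in OCS/LPS against naive. With the second probe set, an alternative chosen after seeing the data, Pes1 was at 0.37 and Wdr12 at -1.44 in RIP-OVAhi against naive, Bop1 at -0.92, Bysl at -0.83 and Wdr12 at -0.98 in OCS/LPS against naive, and Rrp1b at 0.31 in RIP-OVAhi against Rag. The counts of genes of the set that moved by over 1.5 times were as follows. With arrays centred on their median, 2 genes were higher in OCS/LPS against naive and 1 (Wdr12) in Rag against naive; centring moved the median of all genes by at most 0.0658. With the mean of probe sets (41 of 7065 tested genes were of the set), 1 gene was higher in RIP-OVAhi against naive, 2 in OCS/LPS against naive and 1 (Mxd4) in RIP-OVAhi against OCS/LPS. With the second probe set, 2 were higher in OCS/LPS against naive, 1 (Mxd4) in RIP-OVAhi against OCS/LPS and 1 in OCS/LPS against Rag, and 6 were lower in RIP-OVAhi against Rag. With no filter on low values (45 of 18194 tested), 1 was higher and 10 lower in RIP-OVAhi against naive, beside 1081 and 611 of all 18194. The main fit called 1481 and 948 of 8203 genes there. Without the filter 0 were higher in OCS/LPS against naive, beside 1267 of all genes. Against Rag, 0 were higher and 4 lower in RIP-OVAhi cells, beside 509 and 452, and 3 were lower in OCS/LPS cells, beside 433. The deviations of same-numbered arrays had r = 0.35, 0.13 and 0.32 over all tested genes for naive with RIP-OVAhi, naive with OCS/LPS and RIP-OVAhi with OCS/LPS, 0.20, -0.06 and -0.02 without genes of X and Y, and 0.04, -0.28 and -0.27 over the 44 genes. With 2 numbers and no label that ties them to a batch, they were not taken as paired; with the replicate block, 1 gene (Wdr12) was higher in Rag against naive, and 6 and 4 were lower in RIP-OVAhi and OCS/LPS against Rag, while 16 were lower in RIP-OVAhi against naive, not all of them the genes of the fit without the block: Mxi1 lost its call there, as did Rrs1 and Odc1 in OCS/LPS against naive. Leaving out each array in turn gave 4 to 17 lower and 0 to 3 higher genes in RIP-OVAhi against naive, 2 to 11 and 0 to 4 in OCS/LPS against naive, 0 to 4 and 0 to 3 in Rag against naive, 0 and 0 to 2 in RIP-OVAhi against OCS/LPS, 1 to 19 and 0 to 3 in RIP-OVAhi against Rag, and 0 to 12 and 0 to 3 in OCS/LPS against Rag. The Rag array was left out where a comparison did not use it. For all other settings the cause of a change was not tested. Counts over all tested genes moved as well in these settings and when arrays were left out. A moved count need not be particular to the genes of the set.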
